A study of Mus musculus with 6 samples.

Results

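The genes described here belong to the signalling system of transforming growth factor beta (TGF-beta) and activin. They are Tgfb1 and Inhbb, which encode ligands, the receptors Tgfbr1 and Tgfbr2, the signal transducer Smad3, the intracellular inhibitors Smad7, Ski and Skil, the decoy receptor Bambi and its annotated pseudogene Bambi-ps1. Every probe set of the array that the platform annotation assigns to exactly 1 of these 10 symbols was taken, which gave 21 of 45037 non-control probe sets. Of the 21, 20 passed the filter on dim signals and 1, a Tgfbr2 probe set, did not. The genes were partly chosen from values of this same genotype comparison, since the differences of Bambi-ps1 and Inhbb were already known. Their differences between the genotypes are therefore given as a description of these tumours.

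The data come from 6 primary thymic lymphomas of mice, each read on 1 Affymetrix array. All 6 mice were homozygous for the IkL allele of Ikzf1, which lowers the activity of the lymphoid transcription factor Ikaros, and all carried CD4-Cre, a recombinase driven by regulatory sequence of a gene of developing T cells. The genotype in the labels is IkL/L Notch1+/+ CD4-Cre+ for 3 mice aged 18 to 20 weeks and IkL/L Notch1f/f CD4-Cre+ for 3 mice aged 8 to 10 weeks, whose tumours the labels describe as having a deletion of the Notch promoter and exon 1. Age and genotype cannot be told apart, and no tumour of mice without CD4-Cre or with wild-type Ikzf1 was compared here. Each value is a MAS5 signal intensity, which summarises the probes of a probe set on a linear scale and has no meaning across different probe sets.

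The labelled cell type was checked against T cell markers. Of 10 markers 9 were named on the array, and all 9 passed the filter. Their summed intensity was 14130 to 17191 in the Notch1+/+ tumours and 17512 to 21639 in the Notch1f/f tumours. Tumour cells were not sorted. Macrophage markers summed to 269 to 962 in the Notch1+/+ and 1472 to 2879 in the Notch1f/f tumours, with 9 of 11 measured markers above 0 in log2 difference. Fibroblast markers summed to 1977 to 3104 and 1080 to 2322, which overlapped, with 0 of 8 above 0 and none that separated the groups. Such sums follow the brightest probe sets, and Pdgfrb was the largest part of the fibroblast sum in every tumour. C1qa, a complement gene of macrophages, ran from 21.1 to 134.7 and from 228.8 to 420.2, while Adgre1, the macrophage antigen F4/80, overlapped at 19.2 to 51.9 and 16.9 to 36.6. Of the 11 macrophage markers 5 were higher in every Notch1f/f tumour and 1, Marco, was lower in every one. Over all 45037 probe sets 6.61% were higher in every Notch1f/f tumour and 8.52% were lower. Marco had 13.4, 18.2 and 33.8 against 0.5, 0.5 and 0.6, signals too low to be told from background. Summed levels of B cell, dendritic, endothelial, thymic epithelial and platelet markers overlapped between the groups. The part of these cells in the results was not tested. In such tissue fewer cells of a type and less RNA per cell cannot be told apart. With only 3 arrays in each group, every estimate below is imprecise.

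TGF-beta and activin are secreted dimers that bring together a type II and a type I receptor kinase on the cell surface. The type I receptor phosphorylates Smad2 and Smad3, which join Smad4 and enter the nucleus. Ski and Skil (SnoN) hold Smad complexes in a repressed state, and Smad7 blocks the type I receptor. Skil and Smad7 are themselves induced by the pathway and so form feedback loops. In the thymus and in T cells TGF-beta restrains proliferation and shapes the development of regulatory and tissue-resident cells.

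Sequence upstream of the start site was available from RefSeq for 6 of the 10 genes (build GRCm38.p6). The 250 bases before the annotated start are shown for Inhbb, the ligand gene with the larger difference, and for Tgfbr1 and Tgfbr2, the receptor pair of TGF-beta. Each is printed 5′ to 3′ along the gene's own strand, and capitals mark a match to CAGAC, the short element that Smad3 and Smad4 bind.
Inhbb, chr1:119422249-119422498, minus strand: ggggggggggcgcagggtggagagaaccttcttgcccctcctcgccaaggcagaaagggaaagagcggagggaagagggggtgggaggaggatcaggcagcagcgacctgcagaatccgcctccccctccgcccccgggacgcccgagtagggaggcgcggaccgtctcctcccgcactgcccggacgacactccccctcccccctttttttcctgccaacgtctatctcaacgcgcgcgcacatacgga
Tgfbr1, chr4:47352972-47353221, plus strand: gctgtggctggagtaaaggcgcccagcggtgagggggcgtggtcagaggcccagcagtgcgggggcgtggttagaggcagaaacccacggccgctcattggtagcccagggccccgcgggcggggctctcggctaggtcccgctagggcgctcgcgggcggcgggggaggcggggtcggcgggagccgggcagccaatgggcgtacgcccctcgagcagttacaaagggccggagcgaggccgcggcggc
Tgfbr2, chr9:116175364-116175613, minus strand: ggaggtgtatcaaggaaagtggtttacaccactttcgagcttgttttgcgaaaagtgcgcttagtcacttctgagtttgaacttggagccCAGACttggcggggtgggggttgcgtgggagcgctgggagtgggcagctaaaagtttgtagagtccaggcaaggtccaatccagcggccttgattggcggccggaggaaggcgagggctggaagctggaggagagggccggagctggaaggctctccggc
Motifs were searched on both strands, namely CAGAC itself, the core bound by the Notch effector CSL (TGGGAA) and the element bound by TCF and LEF factors (ATCAAAG). The Tgfbr2 window holds 1 match, to CAGAC, whose first base is at position -160 from the start. The windows shown for Inhbb and Tgfbr1 hold no match to any of them. For Tgfbr1 this is the first of its listed starts, and the window of the second (chr4:47385966-47386215, plus strand) holds 1 match to CAGAC, at position -203. Of the genes whose windows are not printed, Smad3 has 1 match, to TGGGAA at position -219. The windows of Ski and Tgfb1 hold no match. Of 32851 windows of the same length in the table, 42.2% hold CAGAC, 21.6% hold TGGGAA and 3.21% hold ATCAAAG, so a match of the first kind is common. The share of G and C was 68.0% for Inhbb, 74.8% for Tgfbr1 and 58.4% for Tgfbr2, against a median of 52.4% over all windows.

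Among the 21 probe sets, those that read higher in every Notch1f/f tumour than in any Notch1+/+ tumour were both of the inhibitor Smad7, 1 each of the corepressors Skil and Ski, 1 of the 3 of Tgfbr2, and that of Bambi-ps1. Those that read lower in every Notch1f/f tumour were 1 of Inhbb and the 2 dimmer ones of Tgfbr1. These are 9 of the 21 probe sets, or 42.9%, with 6 higher and 3 lower in Notch1f/f. All other member probe sets overlapped between the groups. Over all 45037 probe sets this share was 15.1%, with 6.61% higher and 8.52% lower. Over the 27022 tested probe sets it was 18.6%, with 8.13% higher and 10.4% lower. Nothing is read from the excess, because the genes were chosen with values of this contrast known. None of the 20 tested members passed an adjusted p of 0.05 in limma, the linear-model test fitted over all 27022 probe sets, of which 0.0185% passed. The smallest adjusted p among members was 0.0951, while 8 of the 20, and 13.5% of everything tested, had an unadjusted p below 0.05. Differences below are on the scale of log2(intensity + 16), given as Notch1f/f minus Notch1+/+ with the SE of the fit, and this scale understates the change of dim probe sets.

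**Figure D1:**
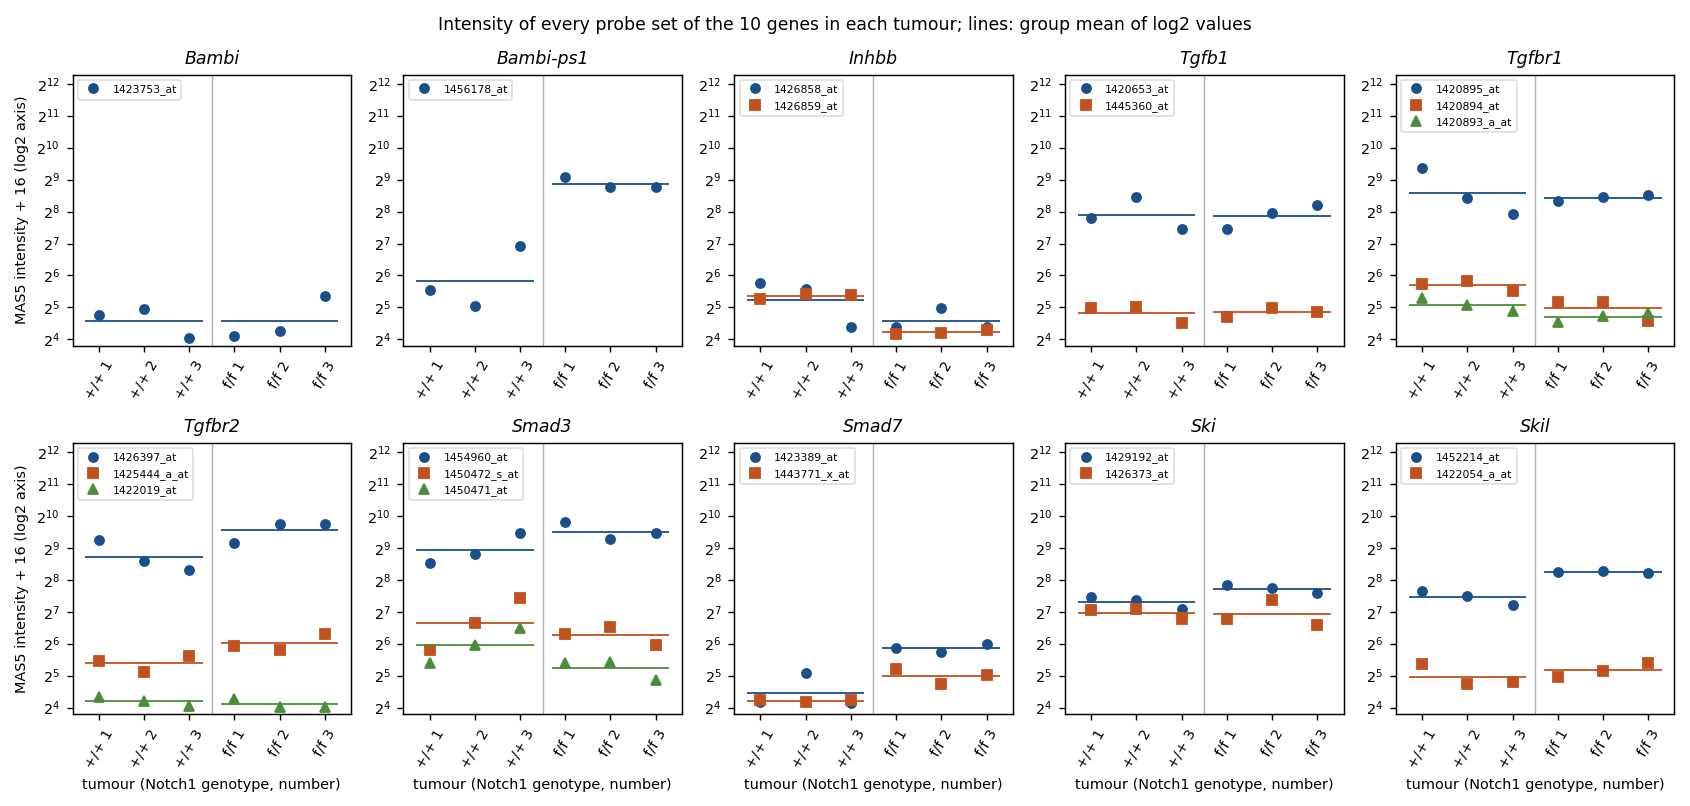
MAS5 intensity plus 16 (log2 axis) of each of the 21 probe sets in the 6 tumours, 1 panel per gene, with a marker per probe set and a line at each group's mean of the log2 values. The Bambi-ps1, Smad7 and brighter Skil probe sets are higher in all 3 Notch1f/f tumours than in any Notch1+/+ tumour, and the 3 Smad3 probe sets do not run the same way.

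Of the ligands, Inhbb encodes the beta B subunit, which forms activin B as a homodimer and inhibin B with an alpha subunit. The gene lies on chromosome 1 (119415463 to 119422248, GRCm38.p6) and has a pair of probe sets, both dim. On 1426859_at the Notch1+/+ tumours 1 to 3 had intensities of 22.7, 26.5 and 26.2, and the Notch1f/f tumours had 1.9, 2.4 and 3.7. The groups were far apart against their spread, at 25.1 ± 2.11 (SD, n = 3) and 2.67 ± 0.929, with a log2 difference of -1.14 ± 0.17. On the other, 1426858_at, the values were 37.8, 31.9 and 5.1 against 4.8, 15.5 and 5.1. Here Notch1+/+ tumour 3 was as low as the Notch1f/f tumours, so the groups overlapped (log2 difference -0.66 ± 0.35). The probe sets of Inhbb thus gave the same sign but disagreed for that tumour. Detection calls were not used here, so signals this low cannot be told from background.

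Tgfb1, the main TGF-beta ligand of lymphoid tissue, had 204.4, 333.1 and 160.2 in the Notch1+/+ tumours and 158.7, 233.6 and 280.3 in the Notch1f/f tumours on its brighter probe set, 1420653_at. The groups overlapped over nearly their whole range, and the log2 difference was -0.02 ± 0.31. The dimmer probe set 1445360_at had 12.8 ± 5.40 and 12.9 ± 2.70 (SD, n = 3), with a log2 difference of 0.02 ± 0.20. An SE of 0.31 leaves a moderate difference of either sign undetectable with 3 tumours per group.

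For the receptors, 2 probe sets of Tgfbr2 read higher and the 2 dimmer ones of Tgfbr1 read lower in the Notch1f/f tumours. Tgfbr2, the type II receptor that binds TGF-beta first, had 584.8, 367.7 and 303.0 in the Notch1+/+ tumours and 557.1, 847.9 and 849.0 in the Notch1f/f tumours on its brightest probe set, 1426397_at. Notch1f/f tumour 1 lay just under Notch1+/+ tumour 1, so the groups overlapped by that pair, with means of 418.5 ± 148 and 751 ± 168 and a log2 difference of 0.85 ± 0.28. On 1425444_a_at the values were 28.0, 18.5 and 33.2 against 45.4, 40 and 62.1, without overlap (log2 difference 0.62 ± 0.25). The third probe set, 1422019_at, reached at most 4.3 and did not pass the filter.

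Tgfbr1, the type I receptor kinase also called ALK5, had 644.9, 327.4 and 225.4 against 303.3, 336.2 and 348.0 on its brightest probe set, 1420895_at. The Notch1+/+ tumours spanned a far wider range here than the Notch1f/f tumours, which lay inside it, and the log2 difference was -0.14 ± 0.34. It turned positive, at 0.26, without Notch1+/+ tumour 1. On 1420894_at the values were 37.7, 40.7 and 29.4 against 19.8, 20.3 and 8.1, lower in every Notch1f/f tumour (log2 difference -0.71 ± 0.24). On 1420893_a_at they were 23.2, 17.6 and 13.5 against 7.5, 10.7 and 12.6 (-0.37 ± 0.19), a gap so small that the groups overlapped after median centring or quantile normalisation of the arrays. The bright and dim probe sets of this gene therefore did not give the same picture.

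**Figure D2:**
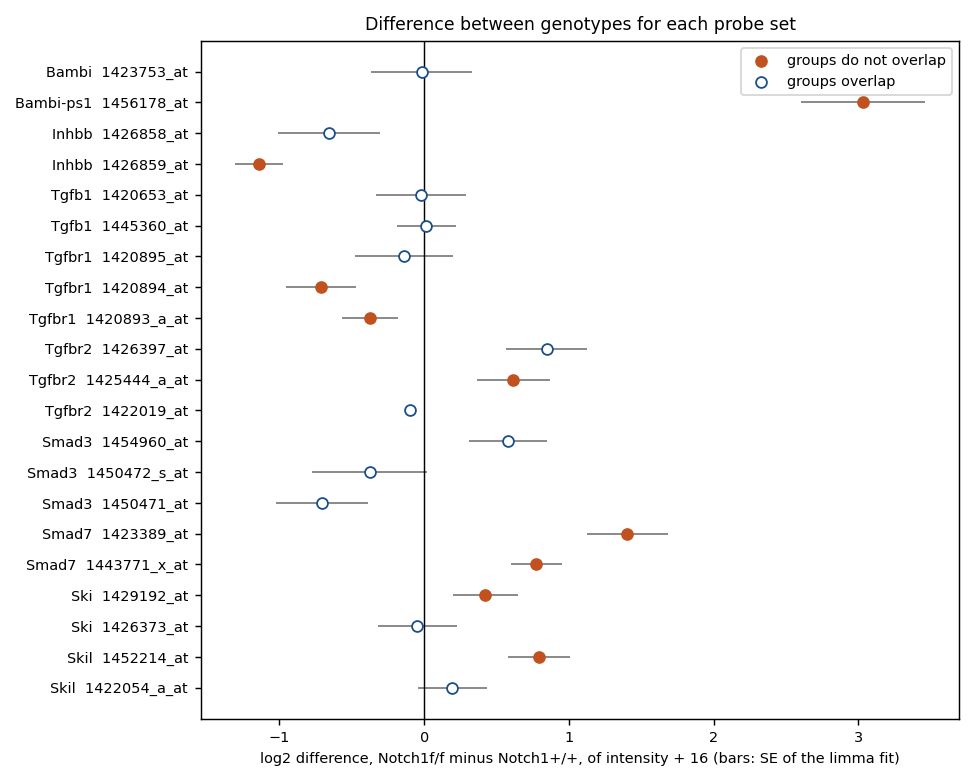
Log2 difference, Notch1f/f minus Notch1+/+, of each of the 21 probe sets, with the SE of the limma fit as bars (none for Tgfbr2 1422019_at, which was not tested). Filled points mark the 9 probe sets whose groups do not overlap; Bambi-ps1 lies farthest to the right at 3.03 and Inhbb 1426859_at farthest to the left at -1.14.

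Smad3, the transducer that both TGF-beta and activin receptors phosphorylate, had probe sets that disagreed in sign. On the brightest, 1454960_at, the values were 350.1, 430.7 and 691.6 in the Notch1+/+ tumours and 873.6, 599.3 and 687.7 in the Notch1f/f tumours. Only Notch1+/+ tumour 3 reached the Notch1f/f range, and the log2 difference was 0.58 ± 0.27. On 1450471_at the values were 25.8, 45.8 and 74.1 against 26.1, 27.3 and 13.3, a log2 difference of -0.71 ± 0.32 with groups that overlapped. The third, 1450472_s_at, of a type whose probes can match more than 1 transcript, had a difference of -0.38 ± 0.40. In all 3 probe sets Notch1+/+ tumour 3 was the highest of its group. No direction is given for the gene as a whole.

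Smad7, the inhibitory Smad that the pathway induces against itself, was higher on both of its probe sets. On 1423389_at the Notch1+/+ tumours had 2.0, 17.8 and 1.6 and the Notch1f/f tumours 42.5, 37.3 and 47.4, with means of 7.13 ± 9.24 and 42.4 ± 5.05. On 1443771_x_at they had 2.9, 2.0 and 2.7 against 21.3, 10.5 and 16.3. The groups did not overlap on either, and the log2 differences were 1.40 ± 0.28 and 0.78 ± 0.18. Most of the Notch1+/+ values cannot be told from background, nor can the Notch1f/f values of 1443771_x_at. The size of the difference is therefore not settled. On 1423389_at it ran from 0.59 with an offset of 64 to 3.03 with an offset of 1, and on 1443771_x_at from 0.26 to 2.23. Probes of the second type (_x_at) may also bind other transcripts.

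Skil encodes SnoN, a corepressor of Smad complexes. Its brighter probe set, 1452214_at, had 184.2, 164.7 and 132.2 in the Notch1+/+ tumours and 284.9, 294.1 and 281.3 in the Notch1f/f tumours. The Notch1f/f values lay within a narrow band, all above the Notch1+/+ tumours, at 287 ± 6.60 against 160 ± 26.3 (log2 difference 0.79 ± 0.21). The dimmer 1422054_a_at had 10.9 to 24.8 and 14.9 to 26.3, with a log2 difference of 0.20 ± 0.24. Ski, the related corepressor, had 159.2, 149.9 and 119.1 against 214.9, 197.6 and 176.0 on 1429192_at, again without overlap (0.42 ± 0.22). On its other probe set, 1426373_at, the values were 115.8, 118.3 and 94.2 against 93.8, 150.7 and 80.6 (-0.05 ± 0.27). For both corepressors 1 probe set separated the groups and the other did not.

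Bambi encodes a receptor-like protein without a kinase domain that lowers TGF-beta signalling. Its only probe set, 1423753_at, was dim, with 11.3, 14.9 and 0.6 in the Notch1+/+ and 1.2, 3.2 and 25 in the Notch1f/f tumours, and a log2 difference of -0.02 ± 0.35. Bambi-ps1, on chromosome 2 (122466583 to 122467797, GRCm38.p6), is annotated as a transcribed pseudogene. Its probe set, 1456178_at, had 31.1, 17.2 and 104.9 in the Notch1+/+ tumours and 530.1, 420.5 and 418.5 in the Notch1f/f tumours. Every Notch1f/f tumour was well above the highest Notch1+/+ tumour, at 456 ± 63.9 against 51.1 ± 47.1, a log2 difference of 3.03 ± 0.43. Without Notch1+/+ tumour 3, the highest of its group, the difference was 3.57 and passed the threshold in limma (adjusted p = 0.00397, against 0.0951 with all tumours). That omission also raised the count past the threshold over all probe sets, from 5 to 14. Without Notch1+/+ tumour 2 the difference was 2.64. As each tumour was left out in turn, the limma adjusted p ran from 0.00397 to 0.355. In the order of p-values of all 27022 tested probe sets Bambi-ps1 stood at place 14 and Inhbb 1426859_at at place 19. Nothing is read from these places, because both genes were chosen with their differences in this contrast known. The Bambi values, at most 25 in any tumour, cannot be told from background. Whether Bambi followed the Bambi-ps1 signal can therefore not be said. The sequences of the probes were not used here, so whether 1456178_at also binds Bambi or another transcript was not tested.

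On chromosome 2 the protein-coding genes next to Bambi-ps1 are Slc28a2 (122426357 to 122461152) and Slc28a2b (122484941 to 122528040). Neither has a probe set of its own, so their levels are not known here. The nearest gene with a probe set of its own was Shf, an adaptor protein, on one side, 97436 bases away. On the other it was Gatm, an enzyme of creatine synthesis, 126676 bases away. Shf had 65.7, 48.4 and 55.5 against 51.3, 79.4 and 45.7 (log2 difference 0.02), and Gatm had 2.0, 11.4 and 13.8 against 4.2, 24.2 and 20.6 (0.34). Neither Shf nor Gatm separated the groups. Of the other tested probe sets with a single symbol, those whose log2 values followed Bambi-ps1 most closely over the 6 tumours were Lcn4, Lamtor1, Csf2rb, Clip4 and Tmem26, with Pearson's r of 0.985 to 0.990 among 22434 compared. Those nearest Inhbb 1426858_at, its brighter probe set, were Oxnad1, Usp18, Snx6, Rabl2 and 4933439C10Rik, at 0.988 to 0.996. Lcn4 and Csf2rb were dim, reaching at most 17.5 and 20.1 in any tumour. With 6 tumours in 2 groups such values of r describe a similar pattern over these tumours and nothing more.

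Other genes of the superfamily and its signalling, genes it induces and Wnt targets were taken from 7 lists of 120 symbols in all, of which 77 passed the filter, each read on its brightest probe set. None of the 77 passed an adjusted p of 0.05 in limma, where 0.0415% of 12043 genes did, and 10 had an unadjusted p under 0.05, against 13% of all genes. In 12 the groups did not overlap, 6 higher and 6 lower in Notch1f/f, while 18.3% of all genes did not overlap, 9.15% higher and 9.17% lower. The median log2 difference of the 77 was -0.07 and that of all tested genes -0.01. The shares of the 77 with an unadjusted p under 0.05 or without overlap lay near those of all genes.

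**Figure D3:**
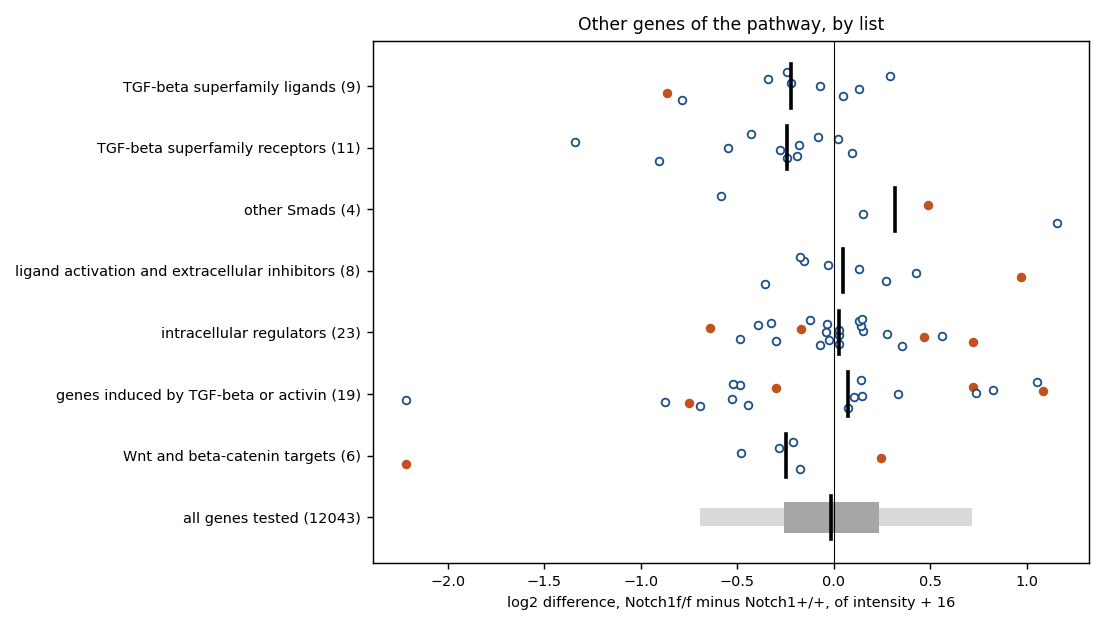
Log2 difference, Notch1f/f minus Notch1+/+, of each measured gene of the 7 lists (number measured in brackets), with filled points where the groups do not overlap and a black line at the list median. The bottom bar shows all 12043 genes tested, with the middle 50% in dark grey and the middle 90% in light grey; list medians lie between -0.25 and 0.32.

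Log2 differences of the 9 measured genes of the ligand list were positive in 3 and negative in 6 (median -0.22). The 6 include Bmp1, which is a protease and not a ligand of the superfamily. The median of this list moved to -0.09 when Notch1f/f tumour 1 was dropped, and to -0.05 or 0.08 when Notch1+/+ tumour 1 or 2 was. With the filter at the 60th percentile only Bmp7, described next, remained. The value of -0.86 under that filter is therefore its own difference and does not describe the list. Bmp7, a bone morphogenetic protein, had 230.9, 239.3 and 288.9 in the Notch1+/+ tumours and 68.8, 160.6 and 197.5 in the Notch1f/f tumours, without overlap (-0.86 ± 0.34, limma adjusted p = 0.332). Inhba, which encodes the other main activin subunit, had 4.2, 13.5 and 2.4 against 7.3, 11.9 and 15.0, with groups that overlapped (0.29 ± 0.22). Bmp1, a protease that processes collagens and latent ligands, and Gdf9, an oocyte ligand, had differences of -0.79 ± 0.42 and -0.22 ± 0.17 with groups that overlapped. Of 11 receptor genes 2 lay above 0 and 9 below (median -0.24), and none separated the groups. The activin and BMP type I receptor Acvr1 had 52.0, 39.3 and 114.1 against 26.0, 64.5 and 6.1. The BMP receptor Bmpr1a varied widely within both groups, at 216.8, 236.5 and 6.8 against 4.6, 18.4 and 100.8. Acvrl1, a type I receptor of blood vessels, and Tgfbr3, the coreceptor betaglycan, had differences of -0.55 ± 0.31 and -0.43 ± 0.37.

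Of the 4 other measured Smads, 3 lay above 0. Smad4, the common partner of the receptor-activated Smads, had 1123.5, 776.6 and 849.0 against 1302.2, 1327.3 and 1201.2, higher in every Notch1f/f tumour (0.49 ± 0.19, limma adjusted p = 0.321). Smad2, the close relative of Smad3, had a difference of 0.15 ± 0.21. For the BMP transducers, Smad1 ranged from 8.9 to 308.9 within the Notch1+/+ group alone, and Smad5 had a difference of -0.58 ± 0.30. Among 8 measured genes of ligand activation and extracellular inhibition, Furin, the protease that cuts the TGF-beta precursor, had 38.3, 63.4 and 52.8 against 109.3, 80.0 and 168.7, the only one without overlap (0.97 ± 0.30, limma adjusted p = 0.290). Itgav, an integrin chain that activates latent TGF-beta, had 0.43 ± 0.26, Dcn, a matrix proteoglycan, -0.36 ± 0.27, and Thbs1, an activator of latent TGF-beta, -0.17 ± 0.21. The 23 intracellular regulators were spread evenly, 12 above and 11 below 0. Tab1, an adaptor of the kinase TAK1, was lower in every Notch1f/f tumour (-0.64 ± 0.28), and Ppm1a, a Smad phosphatase, was higher in every one (0.47 ± 0.21). Ldlrad4, a membrane inhibitor of the pathway, had 49.1, 62.7 and 55.4 against 89.1, 64.3 and 178.7 (0.72 ± 0.34), with Notch1f/f tumour 3 far above the rest. Tgif2, a Smad corepressor, had -0.39 ± 0.24.

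Genes that TGF-beta or activin induce in various cell types lay on both sides of 0. Of 19 measured, 10 lay above 0 and 9 below, with a median of 0.08. In 4 of the 19, or 21.1%, the groups did not overlap, 2 on each side. This share lay near the 18.3% of all genes. The median had no stable sign, at -0.39 without Notch1+/+ tumour 1, 0.36 without Notch1+/+ tumour 2, 0.01 and -0.03 without Notch1f/f tumours 2 and 1, and -0.31 with array weights. Itgae, the integrin chain CD103 that TGF-beta induces on T cells, had 5.2, 14 and 6.1 against 15.4, 22.2 and 95.4, where Notch1f/f tumour 3 gave most of the difference (1.08 ± 0.43, limma adjusted p = 0.334). Tgfbi, a matrix protein named for its induction, had 10.3, 59.4 and 21.6 against 80.9, 47.4 and 92.7 (1.05 ± 0.40, adjusted p = 0.316). Markers of macrophages, which make Tgfbi, were also higher on balance, as given above, and their part in this value was not tested. Cdkn2b, the inhibitor p15 that TGF-beta induces in epithelial cells, had 21.6, 16.5 and 17.3 against 2.7, 7.3 and 3.7, lower in every Notch1f/f tumour (-0.75 ± 0.18, limma adjusted p = 0.212). All of its values are too low to be told from background. Col1a2, a fibroblast collagen that is also among the fibroblast markers, had 190.1, 977.6 and 53.3 against 13.2, 39.8 and 71.3, with Notch1+/+ tumour 2 far above the others.

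Bambi is also a target of Wnt signalling, so 6 measured targets of beta-catenin were set beside it, of which 1 lay above 0. Lef1, a transcription factor of the pathway in T cells, had 2152.7, 2188.5 and 1950.1 against 2482.7, 2555.8 and 2429.6, a small gap without overlap (0.25 ± 0.14, limma adjusted p = 0.451). Ccnd1, the G1 cyclin D1, had 117.6, 392.8 and 96.8 against 24.8, 15.1 and 32.4, lower in every Notch1f/f tumour (-2.22 ± 0.46, limma adjusted p = 0.183). The feedback inhibitors Nkd2 and Znrf3 had differences of -0.28 ± 0.24 and -0.21 ± 0.28 with groups that overlapped.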

How the data were processed

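The deposited values are linear signal intensities, 1 for each probe set, that the authors made with MAS5 according to the submitters' processing notes (version not given in the sources used here). The values of each array had a mean of 100 after trimming 2% at each end. Detection calls were not used here. Tumours are numbered in accession order within a genotype, which pairs nothing. Symbols came from the platform annotation, and updating them through Entrez identifiers changed 0. An offset of 16 was added before taking log2, and probe sets with a mean under the 40th percentile (4.56, an intensity of 7.60) were left out, which left 27022. The genotypes were compared by the moderated linear model of limma 3.58.1 (lmFit, eBayes with trend, R 4.3.3; two-sided, Benjamini-Hochberg), which was tested on simulated data. P-values set each difference against the spread between tumours of the same genotype, moderated by that of all tested probe sets. The members and gene lists were chosen with earlier results of these data known. Named are all member probe sets, of each list the genes past an adjusted p of 0.05 and up to 4 more with the smallest p, and the 5 probe sets most correlated with Bambi-ps1 and Inhbb. The cell markers were read without the filter. Alternatives were other offsets, filters, normalisations and variance settings, averaging over probe sets of 1 gene, and each tumour left out. Figures were drawn with matplotlib 3.10.9.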

Additional observations from a re-analysis of the deposited data

How the results depend on the processing

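Over all probe sets, 5 passed an adjusted p of 0.05. This count was 40 at a threshold of 0.10, 27 with array weights, 11 with median centring and 3 without the filter on dim probe sets. It ranged from 2 to 14 when 1 tumour was left out, being 14 when Notch1+/+ tumour 3 was dropped and 3, 12 and 2 when Notch1f/f tumours 1, 2 and 3 were. The number of member probe sets past the threshold was 0, with 1 under array weights (Inhbb 1426859_at, adjusted p = 0.0441, range over its alternatives 0.0441 to 0.364) and 0 to 1 with a tumour left out. The 1 was Bambi-ps1 without Notch1+/+ tumour 3 (adjusted p = 0.00397, range 0.00397 to 0.355). Of the 9 member probe sets without overlap, 8 kept this after median centring or quantile normalisation. The 3 lower ones numbered 3 to 5 with a tumour left out, 5 without Notch1+/+ tumour 1 or 3. Leaving a tumour out can only add to this count, so it does not show how stable the separation is. The log2 difference of Bambi-ps1 lay between 2.24 and 3.57, of Smad7 1423389_at between 0.59 and 3.03, of Skil 1452214_at between 0.65 and 0.89, and of Inhbb 1426859_at between -2.86 and -0.42. For Smad7 and Inhbb both ends came from the offset (1 or 64). The differences of Bambi, Tgfb1, Ski 1426373_at, Tgfbr1 1420895_at and Smad3 1450472_s_at changed sign in at least 1 setting, the last 2 only without Notch1+/+ tumours 1 and 3, respectively. The median over all pathway lists was -0.12 when all probe sets of each gene were averaged in place of taking the brightest. The causes were not tested. No paired analysis was possible because the labels give the tumours no shared numbers.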
